A study of Mus musculus with 6 samples.

Results

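Lysosomal genes were followed in bone marrow cells of mice with and without p65, which is the RelA member of the NF-κB transcription factors. The set was a fixed list of 46 genes for the enzymes that break down proteins, sugars and lipids inside lysosomes, for proteins of the lysosomal membrane and for regulators of the organelle, and all 46 were measured, out of 19938 genes in the table. Each gene was represented by the array row carrying its symbol alone, and for Arsb, the only member with more than 1 such row, by the row with the higher mean. The compared groups were 3 p65 KO samples (labelled p65 knockout) and 3 p65 WT samples (labelled p65 wild-type), with 1 Affymetrix array per sample. The titles number the samples and do not say whether each came from 1 mouse or from several. In both groups the cells were sorted from bone marrow as lineage-negative, Flk2-negative, Sca-1-positive and c-kit-positive, which selects a compartment rich in blood stem cells and multipotent progenitors. The series title places the deletion in the hematopoietic compartment. The driver of the deletion, the strain, and the age and sex of the mice are not given in the sources used here. No label says whether the mice shared litters or sort days. The p-values therefore measure only the spread between these arrays.

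Lysosomes are acidic compartments in which soluble hydrolases digest material delivered by endocytosis, phagocytosis and autophagy. Most of these enzymes are tagged with mannose 6-phosphate in the Golgi and sorted to the organelle, where a proton pump keeps the lumen acidic and heavily glycosylated proteins such as LAMP1 line the membrane. The factor TFEB, a relative of MITF, activates many lysosomal genes through E-box elements in their promoters. Macrophages and granulocyte precursors hold abundant lysosomes and lysosome-related granules, and stem cells are known to keep lysosomes for long periods at low activity.

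Values are the authors' log2 expression signals, and a log2 fold change is p65 KO over p65 WT. A gene was called when its limma p, adjusted over all 19938 genes, was under 0.05. The p65 WT replicate 1 array stood apart: it correlated with the other arrays at 0.951 to 0.963, while each of the other 5 correlated with at least 1 array at 0.989 to 0.994. The SD of the signals over genes was 2.02 to 2.07 in the KO arrays, 1.64 in this WT array and 1.95 in the other WT arrays. Results that it moves are therefore given with and without it. Rela itself had 7.33, 7.48 and 7.35 in KO cells and 7.52, 7.89 and 7.92 in WT cells, and its log2 fold change, -0.39, was not called (limma adjusted p = 0.209). It was -0.51 for Rela when WT replicate 1 was left out (limma adjusted p = 0.04). A row of this gene need not lie in the deleted part, so the level is a weak check of the labels. Of the genes of the gate, Kit, the c-kit receptor gene, showed 10.02 to 10.18 in KO cells and 10.08 to 10.63 in WT cells (log2 fold change -0.30, limma adjusted p = 0.327). With that WT array left out every KO value of Kit lay below the WT values and the gene was just called (log2 fold change -0.48, limma adjusted p = 0.05), as it was after cyclic loess normalization over all arrays (-0.63, limma adjusted p = 0.0385). The receptor gene of the gate was thus lower in KO cells under these settings and not over all 6 arrays as deposited. The signal of Flt3, the Flk2 gene, was 7.39 to 7.94 in KO cells and 7.31 to 8.08 in WT cells, although the gate removes cells with Flk2 on the surface. Cd34 had 10.7 to 11.0 in KO cells and 10.7 to 10.9 in WT cells. Procr, a surface receptor gene of stem cells, had 5.58 to 6.14 in KO cells and 6.25 to 6.77 in WT cells, without overlap, and was not called (limma adjusted p = 0.136). Without WT replicate 1 Procr was called lower in KO cells (log2 fold change -0.86, limma adjusted p = 0.0402).

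Of the 46 lysosomal genes 1 rose in KO cells, 0 fell and 45 were not called. The gene that rose was Ctsz, which encodes cathepsin Z, a carboxypeptidase. Of all genes, 0.687% were called higher and 0.13% lower. The members leaned upward as a set: 36 had a positive and 10 a negative log2 fold change, where 45.9% of all genes were positive, and the median of the members was 0.34 against -0.042 over all genes. In 21 members every KO value lay above every WT value and in 2, Ctsf and Cd63, every KO value lay below, where all genes gave 19.2% and 15.4%. An unadjusted limma p under 0.05 was reached by 17 members with higher and 1 with lower signal in KO cells, where 13.8% and 7.76% of all genes did so. In bulk samples such as these, more RNA of a gene per cell and more cells that express it cannot be told apart.

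Other genes of bright signal leaned the same way. When all genes were ordered by mean signal and divided into tertiles, 33 members fell in the brightest, 11 in the middle and 2, Ctsk and Lgmn, in the dimmest. The brightest members had a median log2 fold change of 0.38, where all 6646 genes of that tertile had 0.30. Positive values were found in 29 of these 33 members, where 86.7% of the bright genes were positive. Separation upward was seen in 16 of the 33, where 43.9% of the bright genes showed it, and an unadjusted p under 0.05 with higher KO signal in 14, against 31.4% of the bright genes. In the middle tertile the 11 members had a median of 0.090, where all genes had -0.0885. Of the 33, 1 was called, where 1.26% of the bright genes were called higher. The members' shares thus stood near those of other bright genes or moderately above them, and the difference was not tested.

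**Figure D1:**
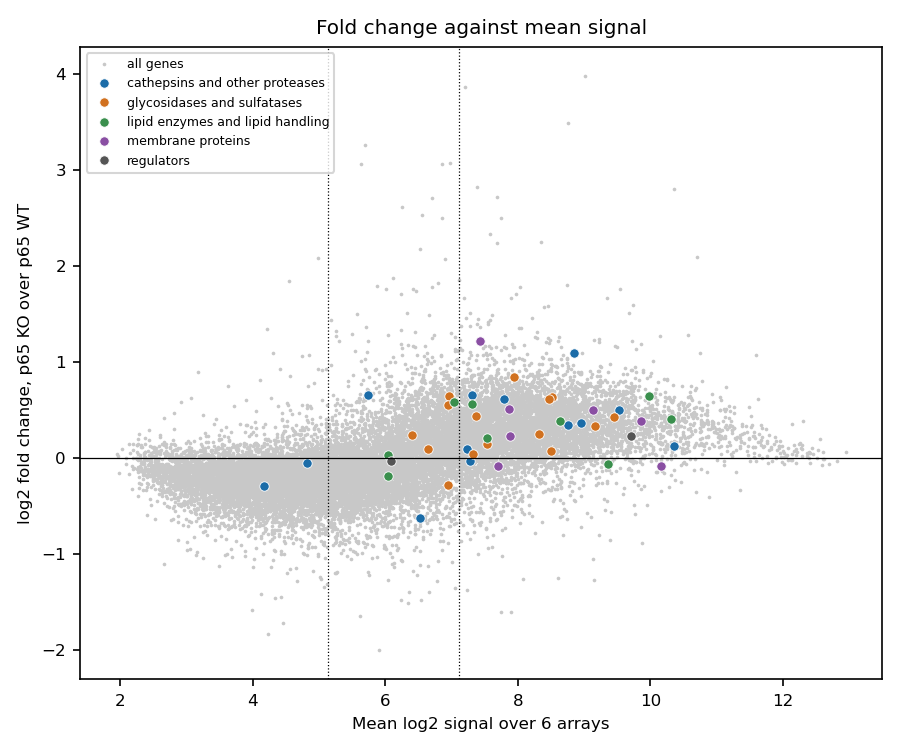
Log2 fold change (p65 KO over p65 WT, vertical axis) against mean log2 signal over the 6 arrays (horizontal axis). Grey points are all 19938 genes, coloured points the 46 lysosomal genes by class, and dotted lines bound the tertiles of signal. Most coloured points lie among the bright genes, whose median is 0.30, and Cd68 and Ctsz are the highest of them.

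WT replicate 1 set much of the lean. In 36 of the 46 members that array held the lowest value of all 6. Expressed as the median over members of the signal minus each gene's mean over arrays, the KO arrays stood at 0.074, 0.23 and 0.15, and the WT arrays at -0.46, 0.021 and -0.011. Thus WT replicates 2 and 3 lay close to 0 and below all 3 KO arrays, while WT replicate 1 lay far below. All genes of the brightest tertile had nearly the same value in WT replicate 1, -0.47, with 0.12, 0.16 and 0.17 in the KO arrays. The low values of that array were therefore not particular to lysosomal genes. Without WT replicate 1 the median log2 fold change of the members was 0.11, and 29 of 46 were positive. The bright members then had 0.19 where all bright genes had 0.13. The number of called members was then 3 higher (Ctsz, Cd68 and Ctsh) and 0 lower, where 3.28% of all genes were called higher and 1.38% lower. At an unadjusted p the counts without that array were 17 higher and 3 lower, where 13.6% and 10.5% of all genes were found. Normalization removed most of the lean as well, since the median was 0.053 after quantile normalization, which left 29 members positive, and 0.045 after cyclic loess normalization, which left 27.

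**Figure D2:**
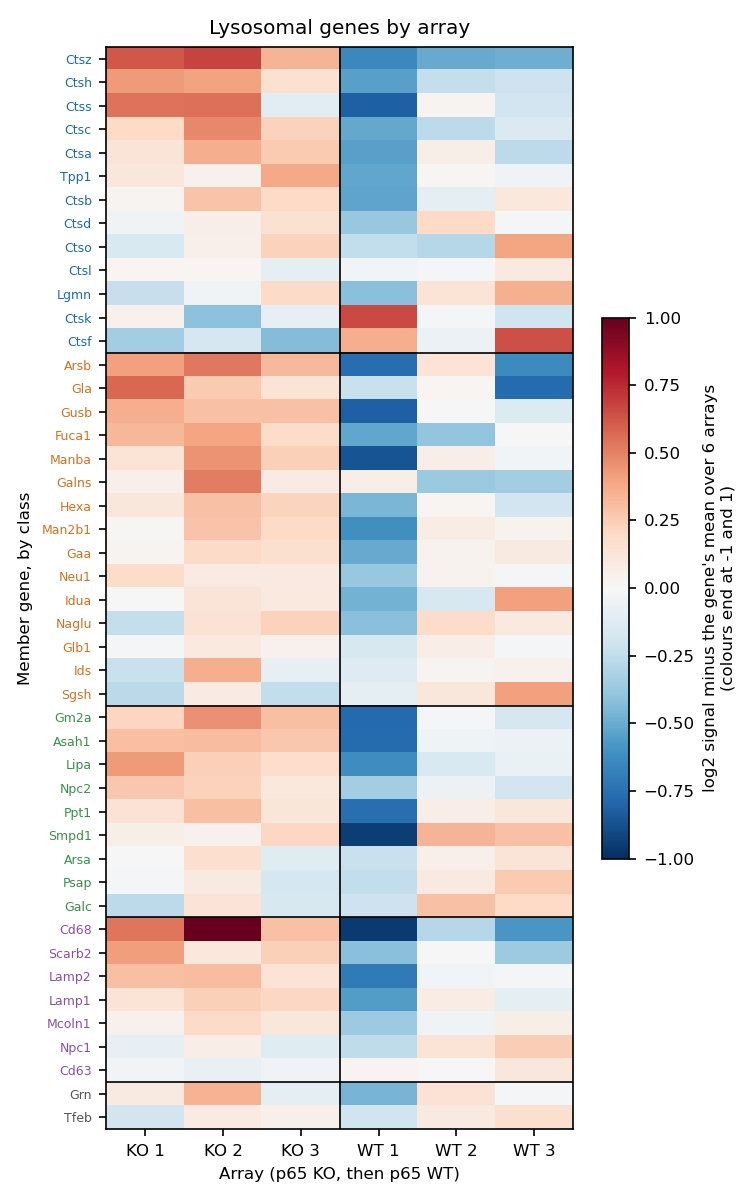
Signal of each of the 46 genes (rows, grouped by class and sorted by fold change) in each array (columns, 3 p65 KO and then 3 p65 WT), as log2 signal minus the gene's mean over the 6 arrays. Red is above and blue below that mean. The column of WT replicate 1 is the bluest, and it holds the lowest value of 36 genes.

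**Figure D3:**
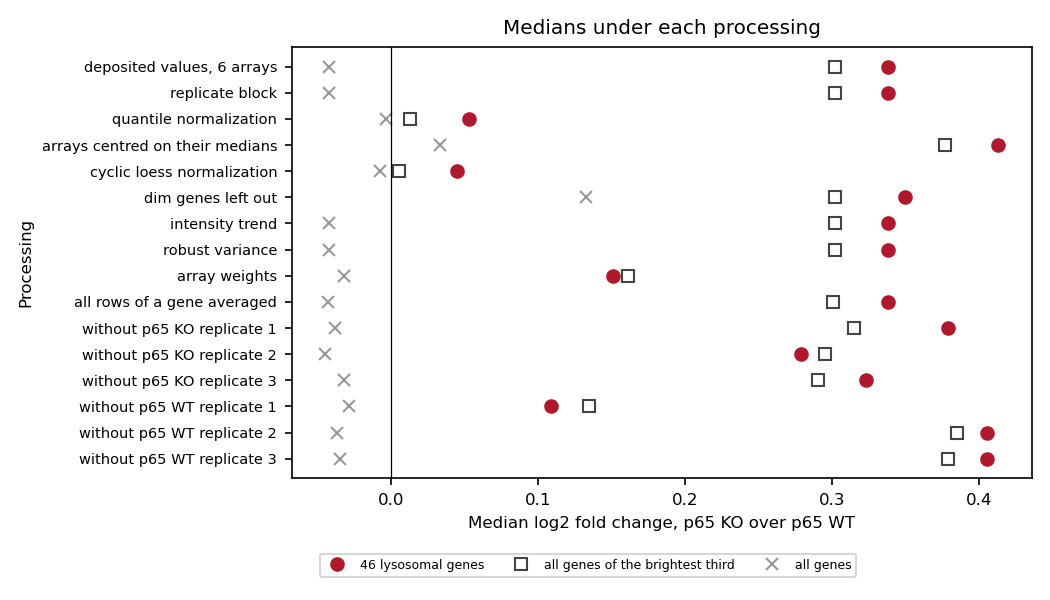
Median log2 fold change (p65 KO over p65 WT, horizontal axis) of the 46 lysosomal genes, of all genes in the brightest tertile and of all genes, under each processing (rows). The medians of the lysosomal genes run from 0.045 to 0.41 and move together with those of the bright genes.

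The 2 regulators showed no called difference. Tfeb had 5.89, 6.16 and 6.13 in KO cells and 5.88, 6.17 and 6.24 in WT cells. The groups overlapped, and the log2 fold change was -0.035 (SE 0.16, limma adjusted p = 0.894). Grn, which encodes progranulin, a secreted glycoprotein that is cleaved into granulins in lysosomes, had 9.79, 10.05 and 9.62 in KO cells and 9.24, 9.85 and 9.69 in WT cells. Again the groups overlapped, with the lowest value in WT replicate 1 (log2 fold change 0.23, SE 0.20). With that array left out the log2 fold changes were -0.14 for Tfeb, with every KO value below both WT values, and 0.053 for Grn. The signs of both were not stable, as Tfeb turned positive and Grn negative after quantile and cyclic loess normalization.

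The promoters of the members were examined for the E-box that TFEB and related factors bind. Promoter sequences were those of RefSeq on the build GRCm38.p6, read over the 250 bases before each annotated start and on both strands. They were found for 41 of the 46 members. Asah1, Ctsb, Ctsh, Galns and Npc1 were not matched. The hexamer CACGTG was present in 13 of the 41 members (31.7%), where 6.86% of 27025 genes in the table held it. The 13 were Arsa, Ctsa, Ctsd, Ctsf, Ctsl, Gaa, Gla, Glb1, Lamp1, Lgmn, Mcoln1, Naglu and Sgsh. The longer form TCACGTGA, which contains the hexamer, was present in Ctsa, Ctsd, Gla and Mcoln1, 4 of 41 (9.76%), where 0.907% of all genes held it. The NF-κB consensus was read as GGGRNWYYCC, with R for A or G, N for any base, W for A or T and Y for C or T. It was found in 6 of 41 members, Ctso, Grn, Lgmn, Neu1, Psap and Scarb2 (14.6%), where 4.46% of all genes held it. A gene was counted when any of its annotated starts had the motif. In Psap and Lgmn, and for the hexamer in Ctsa and Lgmn, not every annotated start had it. Members with the hexamer had a median log2 fold change of 0.090 and the other 28 of 0.39. With the NF-κB consensus the median was 0.16 in 6 members, and it was 0.36 in the 35 without. These matches and medians are descriptions and were not tested.

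The upstream sequences of 6 members are shown because they carry the most E-boxes (Lamp1, Mcoln1, Gla and Ctsd) or belong to the genes of largest fold change (Ctsz and Cd68, in which neither motif was found). They are written 5′ to 3′ toward the start of the gene, with each CACGTG in capitals. Lamp1 lies at chr8:13158911-13159160 (plus strand), Mcoln1 at chr8:3500269-3500518 (plus strand), Gla at chrX:134601006-134601255 (minus strand), Ctsd at chr7:142387828-142388077 (minus strand), Ctsz at chr2:174439040-174439289 (minus strand) and Cd68 at chr11:69666171-69666420 (minus strand).
Lamp1: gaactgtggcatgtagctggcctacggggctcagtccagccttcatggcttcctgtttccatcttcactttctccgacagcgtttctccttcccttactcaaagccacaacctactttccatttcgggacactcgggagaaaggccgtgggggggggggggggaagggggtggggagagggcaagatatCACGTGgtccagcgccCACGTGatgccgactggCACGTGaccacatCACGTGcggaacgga
Mcoln1: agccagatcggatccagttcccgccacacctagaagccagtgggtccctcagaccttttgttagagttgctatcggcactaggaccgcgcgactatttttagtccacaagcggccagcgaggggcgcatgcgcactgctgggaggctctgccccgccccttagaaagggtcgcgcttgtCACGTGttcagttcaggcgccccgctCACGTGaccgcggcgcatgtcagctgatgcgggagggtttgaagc
Gla: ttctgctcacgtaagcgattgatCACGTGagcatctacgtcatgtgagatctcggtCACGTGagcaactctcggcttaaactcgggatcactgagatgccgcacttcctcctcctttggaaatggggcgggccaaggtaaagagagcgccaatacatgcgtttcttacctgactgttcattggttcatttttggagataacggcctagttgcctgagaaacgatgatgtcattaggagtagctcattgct
Ctsd: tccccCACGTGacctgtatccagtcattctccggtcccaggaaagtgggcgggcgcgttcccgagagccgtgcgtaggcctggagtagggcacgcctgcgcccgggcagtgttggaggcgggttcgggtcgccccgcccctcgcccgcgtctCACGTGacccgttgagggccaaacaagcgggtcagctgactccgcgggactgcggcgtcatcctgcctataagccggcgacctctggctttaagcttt
Ctsz: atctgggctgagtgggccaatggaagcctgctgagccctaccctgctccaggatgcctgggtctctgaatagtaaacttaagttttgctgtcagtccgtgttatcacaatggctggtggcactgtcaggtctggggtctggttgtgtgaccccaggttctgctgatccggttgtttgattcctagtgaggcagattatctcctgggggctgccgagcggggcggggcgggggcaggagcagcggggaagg
Cd68: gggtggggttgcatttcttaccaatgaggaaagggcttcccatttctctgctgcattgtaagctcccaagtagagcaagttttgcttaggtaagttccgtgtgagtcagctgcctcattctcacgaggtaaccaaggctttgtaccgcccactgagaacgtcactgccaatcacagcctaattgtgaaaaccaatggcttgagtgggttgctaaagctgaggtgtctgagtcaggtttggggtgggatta

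In Lamp1 all 4 hexamers lay near the start, with first bases 61, 45, 28 and 15 bases upstream. In Mcoln1 the 2 hexamers began 71 and 45 bases upstream, in Ctsd 245 and 98 bases, and in Gla 227 and 194 bases. None of these 4 genes was called, and their log2 fold changes were 0.39 for Lamp1, 0.23 for Mcoln1, 0.65 for Gla and 0.125 for Ctsd.

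The cathepsins and other proteases (13 genes) had 1 called member, a median log2 fold change of 0.34 and values from -0.63 to 1.09. Ctsz had 9.47, 9.53 and 9.19 in KO cells, against 8.21, 8.35 and 8.36 in WT cells. All KO values lay well above all WT values, and the spread was small in both groups. The means were 9.40 ± 0.18 in KO cells and 8.31 ± 0.086 in WT cells (SD, n = 3 each), a 2.13-fold rise (log2 fold change 1.09, SE 0.15, limma adjusted p = 0.0239). The log2 fold change of Ctsz was 1.04 without WT replicate 1 (limma adjusted p = 0.0152) while the call was lost after cyclic loess (0.74, limma adjusted p = 0.0658) and quantile normalization (0.76, limma adjusted p = 0.0876). The call was also lost when any 1 of the other 5 arrays was left out, where the log2 fold change ran from 1.03 to 1.19 and the limma adjusted p from 0.0588 to 0.203.

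Next in this class came Ctsh and Ctss. Ctsh encodes cathepsin H, an aminopeptidase, and had 6.17, 6.15 and 5.90 in KO cells, against 5.20, 5.50 and 5.54 in WT cells. The groups did not overlap, and the log2 fold change of 0.66 (SE 0.16) was not called over all 6 arrays (limma adjusted p = 0.0905). It was called without WT replicate 1, at 0.55 (limma adjusted p = 0.0495). Ctss, the gene of cathepsin S, which trims the invariant chain of MHC class II, had 7.85, 7.86 and 7.19 in KO cells, against 6.49, 7.33 and 7.11 in WT cells. KO replicate 3 lay within the range of the WT arrays, so the groups overlapped, and the log2 fold change was 0.66 (SE 0.26, limma adjusted p = 0.208). For Ctss it was 0.41 when WT replicate 1 was left out (limma adjusted p = 0.285).

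At the lower end of the class stood Ctsf, Ctsk and Lgmn. Ctsf, the gene of cathepsin F, another cysteine protease, had 6.18, 6.36 and 6.10 in KO cells, against 6.89, 6.47 and 7.17 in WT cells. Each KO value was below each WT value, the log2 fold change was -0.63 (SE 0.20), and the difference was not called (limma adjusted p = 0.143). Without WT replicate 1 it was -0.61 (limma adjusted p = 0.133). Ctsk, which encodes the bone-resorbing protease of osteoclasts, had 4.21, 3.76 and 4.09 in KO cells and 4.83, 4.16 and 3.96 in WT cells. Lgmn, the gene of the asparaginyl endopeptidase legumain, had 4.59, 4.79 and 5.01 in KO cells and 4.40, 4.95 and 5.18 in WT cells. The signals of both genes were in the dimmest tertile and overlapped between groups, with log2 fold changes of -0.30 and -0.051 over all arrays, and of -0.042 and -0.27 when WT replicate 1 was left out. The remaining 7 proteases were Ctsa, Ctsb, Ctsc, Ctsd, Ctsl, Ctso and Tpp1, with log2 fold changes from -0.034 to 0.61. Of these, Ctsa (the carboxypeptidase that protects β-galactosidase and neuraminidase), Ctsc (the dipeptidyl peptidase that activates granule serine proteases) and Tpp1 (tripeptidyl peptidase) had KO values above all WT values. The other 4 overlapped, among them Ctsd, an aspartic protease with 2 E-boxes (log2 fold change 0.125, limma adjusted p = 0.647, and -0.031 when WT replicate 1 was left out).

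**Figure D4:**
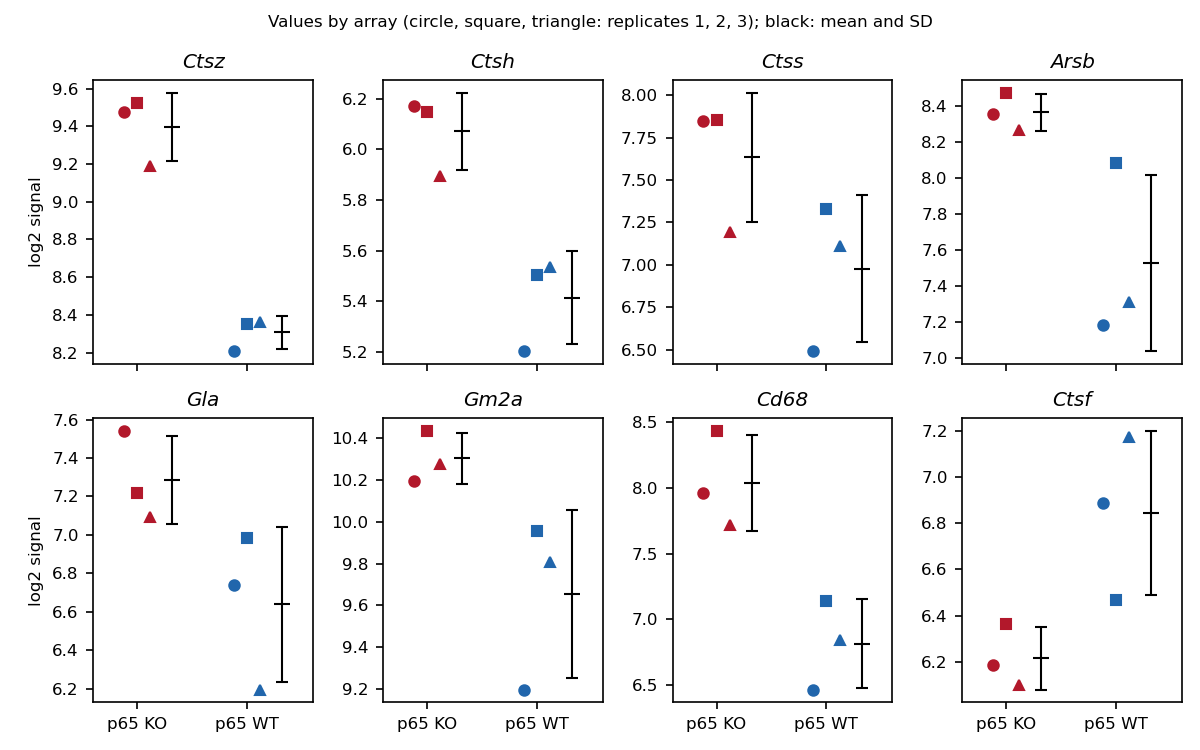
Log2 signal (vertical axis, each panel on its own scale) of 8 lysosomal genes in p65 KO (red) and p65 WT (blue) arrays, with the mean and SD of each group in black (n = 3 each). Marker shapes give the replicate number. Ctsz and Cd68 are separated by the widest gaps, Ctss overlaps through KO replicate 3, and Ctsf is the gene shown with lower KO signal.

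Among the glycosidases and sulfatases (15 genes) 0 were called, 14 of 15 log2 fold changes were positive, and the median was 0.33. At an unadjusted limma p under 0.05, 5 of the 15 were higher in KO cells. Of all genes 13.8% were, and of the brightest tertile 31.4%. Arsb encodes arylsulfatase B, which acts on dermatan sulfate, and had 8.35, 8.47 and 8.27 in KO cells, against 7.19, 8.09 and 7.31 in WT cells. The groups did not overlap, although WT replicate 2 came close to the KO arrays. The log2 fold change was 0.84 (SE 0.24, limma adjusted p = 0.123) over all arrays and 0.67 (limma adjusted p = 0.12) without WT replicate 1. Gla, the α-galactosidase gene whose loss causes Fabry disease in humans, had 7.54, 7.22 and 7.10 in KO cells, against 6.74, 6.98 and 6.19 in WT cells. The groups were separate and the log2 fold change was 0.65 (SE 0.22, limma adjusted p = 0.168), and 0.70 without WT replicate 1. Gusb, the β-glucuronidase gene, had 8.87, 8.80 and 8.80 in KO cells, against 7.69, 8.50 and 8.38 in WT cells. The KO values were nearly alike, and the log2 fold change of 0.63 (SE 0.21) went to 0.39 without WT replicate 1.

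The lowest values of this class belonged to Glb1, Ids and Sgsh. Glb1, the gene of lysosomal β-galactosidase, had 8.47, 8.59 and 8.54 in KO cells and 8.34, 8.56 and 8.48 in WT cells. Ids, which encodes iduronate sulfatase, had 7.10, 7.69 and 7.24 in KO cells and 7.20, 7.35 and 7.36 in WT cells. Both overlapped between groups, with log2 fold changes of 0.076 and 0.0405 over all arrays, and of 0.014 and -0.012 when WT replicate 1 was left out. Sgsh, the sulfamidase gene of heparan sulfate breakdown, had 6.67, 7.03 and 6.70 in KO cells and 6.85, 7.06 and 7.35 in WT cells. Its log2 fold change was -0.29 (SE 0.18, limma adjusted p = 0.349), and -0.41 without WT replicate 1, where the groups no longer overlapped. The other 9 genes, Hexa, Gaa, Galns, Naglu, Neu1, Man2b1, Manba, Fuca1 and Idua, had log2 fold changes from 0.090 to 0.61. Of these, Hexa (the α chain of β-hexosaminidase), Neu1 (a sialidase), Manba (β-mannosidase) and Fuca1 (an α-fucosidase) had KO values above all WT values.

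The enzymes and carriers of lipid breakdown (9 genes) also had 0 called members, with a median log2 fold change of 0.38. At an unadjusted limma p under 0.05, 4 members were higher in KO cells. Of all genes 13.8% were, and of the brightest tertile 31.4%. Gm2a, the gene of the activator protein that presents ganglioside GM2 to hexosaminidase A, had 10.20, 10.43 and 10.28 in KO cells, against 9.20, 9.96 and 9.81 in WT cells. The KO arrays were all higher, and the log2 fold change was 0.65 (SE 0.21, limma adjusted p = 0.151). Asah1, which encodes acid ceramidase, had 7.33, 7.34 and 7.30 in KO cells, against 6.26, 6.99 and 6.98 in WT cells. Lipa, the gene of the acid lipase that hydrolyses cholesteryl esters, had 7.74, 7.55 and 7.49 in KO cells, against 6.69, 7.16 and 7.24 in WT cells. Both genes were separate between groups, with log2 fold changes of 0.58 and 0.56. Without WT replicate 1 the log2 fold changes of Gm2a, Asah1 and Lipa were 0.42, 0.34 and 0.39, with limma adjusted p from 0.0836 to 0.0961.

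The 3 lowest log2 fold changes of this class were those of Arsa, Psap and Galc. Arsa, the arylsulfatase A gene, had 6.03, 6.21 and 5.92 in KO cells and 5.81, 6.09 and 6.17 in WT cells. Psap encodes prosaposin, the precursor of the saposins that assist these enzymes, and had 9.34, 9.45 and 9.18 in KO cells and 9.11, 9.45 and 9.62 in WT cells. Galc, the galactosylceramidase gene, had 5.78, 6.18 and 5.88 in KO cells and 5.83, 6.34 and 6.24 in WT cells. The groups overlapped in all 3 genes, and the log2 fold changes were 0.032, -0.066 and -0.19. When WT replicate 1 was left out they were -0.072, -0.21 and -0.34, and every KO value of Galc then lay below both WT values, which was not called (limma adjusted p = 0.194). Smpd1, Npc2 and Ppt1 made up the rest, with log2 fold changes from 0.21 to 0.40. Npc2, which hands cholesterol to NPC1, and Ppt1, a thioesterase, had KO values above all WT values. In Smpd1, the acid sphingomyelinase gene, the groups overlapped over all arrays, while without WT replicate 1 every KO value lay below both remaining WT values and the log2 fold change of 0.21 became -0.21 (limma adjusted p = 0.258).

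The membrane proteins (7 genes) had the member with the highest log2 fold change of the set, and 0 called genes. At an unadjusted limma p under 0.05, 3 were higher in KO cells. Of all genes 13.8% were, and of the brightest tertile 31.4%. Cd68, which encodes a sialomucin of the LAMP family that is abundant in macrophages, had 7.96, 8.43 and 7.71 in KO cells, against 6.47, 7.14 and 6.84 in WT cells. All KO values were higher than all WT values, with a wide spread in both groups. The means were 8.04 ± 0.36 in KO cells and 6.82 ± 0.34 in WT cells (SD, n = 3 each), a ratio of 2.33, with a log2 fold change of 1.22 (SE 0.23) that missed the threshold (limma adjusted p = 0.0622). With the replicate number as a block Cd68 was called (limma adjusted p = 0.0151), which made 2 called members where 1.41% of all genes were called higher. It was also called without WT replicate 1, at 1.05 on the log2 scale (limma adjusted p = 0.0427).

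Scarb2, the gene of the membrane protein LIMP-2 that carries glucocerebrosidase to lysosomes, had 8.29, 7.98 and 8.11 in KO cells, against 7.46, 7.88 and 7.51 in WT cells. Lamp2, a gene of the main membrane glycoproteins, had 9.43, 9.44 and 9.26 in KO cells, against 8.42, 9.10 and 9.12 in WT cells. The groups did not overlap in either gene, and the log2 fold changes were 0.51 (SE 0.17, limma adjusted p = 0.153) and 0.50 (SE 0.21, limma adjusted p = 0.216). Leaving out WT replicate 1 gave 0.43 for Scarb2 and 0.27 for Lamp2. Its relative Lamp1, taken up outside the rule for its 4 E-boxes, had 9.99, 10.09 and 10.06 in KO cells, against 9.30, 9.93 and 9.76 in WT cells. It was likewise separate, with a log2 fold change of 0.39 (SE 0.18, limma adjusted p = 0.253) over all arrays and 0.21 when WT replicate 1 was left out.

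Mcoln1, the gene of a calcium channel of the lysosomal membrane, had 7.92, 8.07 and 7.99 in KO cells and 7.51, 7.84 and 7.94 in WT cells. Npc1, the gene of the cholesterol exporter, had 7.61, 7.76 and 7.57 in KO cells and 7.44, 7.83 and 7.94 in WT cells. Both overlapped, with log2 fold changes of 0.23 and -0.089. When WT replicate 1 was left out these were 0.10 and -0.24, and every KO value of Npc1 then lay below both WT values. Cd63, a tetraspanin gene of late endosomes, had 10.14, 10.09 and 10.13 in KO cells and 10.19, 10.16 and 10.28 in WT cells. Its groups were separate by a narrow gap, with a log2 fold change of -0.089 (SE 0.13, limma adjusted p = 0.651).

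The class medians thus lay between 0.33 and 0.39 for the 4 classes of enzymes and membrane proteins, and at 0.0975 for the 2 regulators. Without WT replicate 1 they were 0.17 for the proteases, 0.11 for the glycosidases and sulfatases, 0.096 for the lipid genes, 0.21 for the membrane proteins and -0.045 for the regulators. Within each class of enzymes and membrane proteins the members differed by more than these medians did.

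**Figure D5:**
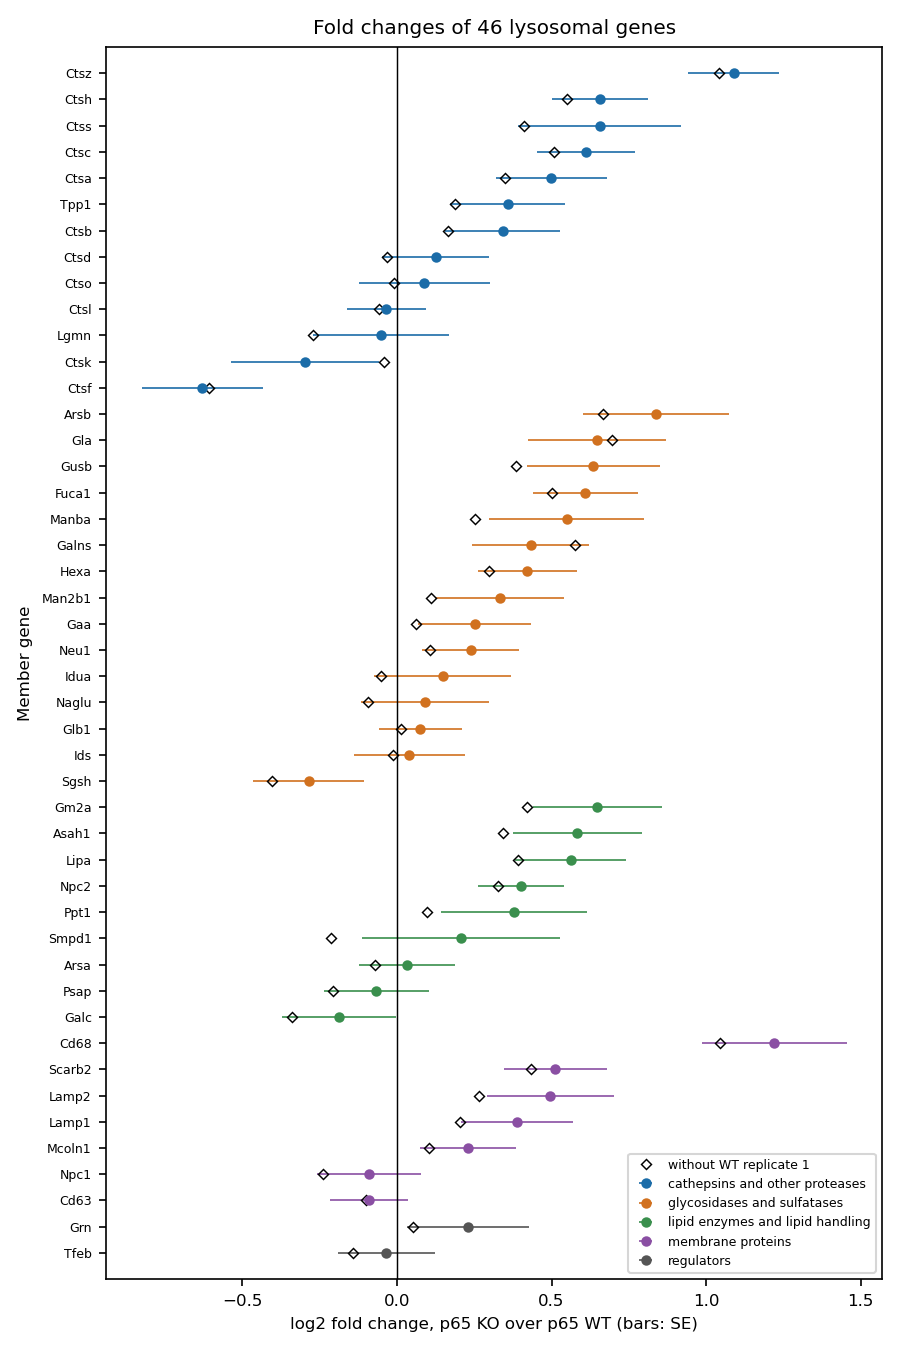
Log2 fold change (p65 KO over p65 WT, horizontal axis) of each of the 46 genes with its SE over all 6 arrays (filled points and bars, coloured by class), and without p65 WT replicate 1 (open diamonds). Most diamonds lie left of their points, Ctsz and Cd68 stay above 1 in both, and Ctsf is the lowest in both.

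Other genes of the lysosome were read from lists of the pathway. Of 29 measured genes in a list of further hydrolases 3 rose, 0 fell and 26 were not called, with a median log2 fold change of 0.28. Ctsg, the serine protease gene of azurophil granules, showed 11.78, 11.84 and 11.63 in KO cells, against 8.73, 9.03 and 9.10 in WT cells, a rise by 2.80 on the log2 scale (limma adjusted p = 0.000312). Pld4, an endolysosomal nuclease gene, rose by 1.36 on the log2 scale (limma adjusted p = 0.0301) and Ifi30, the gene of a lysosomal thiol reductase, by 1.08 (limma adjusted p = 0.0371). Among 8 cathepsin inhibitors 1 rose and 0 fell. This was Cst7, the gene of cystatin F, which is targeted to lysosomes, with 10.38, 10.51 and 10.38 in KO cells, against 8.62, 8.79 and 8.57 in WT cells (log2 fold change 1.76, limma adjusted p = 0.00162).

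Of 19 measured genes of the proton pump 1 rose, 0 fell and 18 were not called, and the median was 0.45. At an unadjusted limma p under 0.05, 11 were higher and 1 lower in KO cells, where 13.8% and 7.76% of all genes were. Every KO value lay above every WT value in 13 and below in 2, where all genes gave 19.2% and 15.4%. In the brightest tertile of all genes the upward shares were 31.4% and 43.9%. The pump median was 0.27 without WT replicate 1 and 0.13 after cyclic loess normalization. Atp6ap2, which encodes an accessory protein of the pump, had 7.53, 7.41 and 7.17 in KO cells, against 6.36, 6.42 and 6.60 in WT cells (log2 fold change 0.91, limma adjusted p = 0.0475). No gene was called in 12 of mannose 6-phosphate sorting (median 0.27), 18 of the MiT/TFE factors and nutrient signalling at the lysosome (median 0.24) and 24 of further membrane proteins (median 0.26). At an unadjusted limma p under 0.05 these lists had 2, 4 and 5 members higher in KO cells and 1 lower each. The smallest p-values of the sorting list belonged to Nagpa, the uncovering enzyme of the tag (log2 fold change 0.55, limma adjusted p = 0.0913), and Ap1s1, an adaptor subunit gene (0.78, limma adjusted p = 0.126). In the signalling list they belonged to Rraga (0.60) and Lamtor2 (0.61), genes of the complexes that recruit mTORC1, with limma adjusted p of 0.119 and 0.139. In the membrane list they belonged to Ostm1 (0.96), the partner of the chloride transporter ClC-7, and Tmem192 (0.80), with limma adjusted p of 0.0793 and 0.0809. Ostm1 was called with the replicate number as a block (limma adjusted p = 0.0351), after cyclic loess normalization (0.65, limma adjusted p = 0.0445) and when WT replicate 1 was left out (0.74, limma adjusted p = 0.0257). Leaving out that array also gave calls for Tmem192 (0.67, limma adjusted p = 0.0458) and Nagpa (0.48, limma adjusted p = 0.0393). The cathepsin inhibitors had 2 called higher with the block and 2 when that array was left out. The further hydrolases had 4 higher with the block, and 4 higher and 1 lower when that array was left out. Of all genes 1.41% were called higher with the block, and 3.28% higher and 1.38% lower without that array.

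Some markers of other cell types moved with the genotype, and their lists are given beside these results. Of 16 markers of granulocyte and monocyte progenitors 9 rose and 0 fell, with Elane, the neutrophil elastase gene, highest (log2 fold change 3.98, limma adjusted p = 0.00027). Ctsg, Ms4a3, Prtn3, Lcn2 and Irf8 were also among the 9. Without WT replicate 1 the count was 9 as well, where 3.28% of all genes were called higher. The summed linear signal of that list was 15503 to 17847 in KO arrays, against 4370 to 5248 in WT arrays, so the groups lay far apart. Bright genes such as Ctsg weigh most in that sum. Of the 16 log2 fold changes 12 were positive and 4 negative, down to -0.71, with a median of 1.10. In 10 of these markers every KO value lay above every WT value and in 3 below, where all genes gave 19.2% and 15.4%. At an unadjusted limma p under 0.05, 10 were higher and 1 lower in KO cells, where 13.8% and 7.76% of all genes were. Of 19 macrophage and monocyte markers 3 rose and 0 fell: Mpeg1 (log2 fold change 2.17, limma adjusted p = 0.0045), Csf1r (1.71, limma adjusted p = 0.00871) and Ccr2 (2.53, limma adjusted p = 0.0207). That list summed to 2241 to 2683 in KO arrays, against 1690 to 2368 in WT arrays, and its median log2 fold change was -0.038. Of its 19 log2 fold changes 7 were positive and 12 negative. In 4 of these markers every KO value lay above every WT value and in 3 below. Adgre1, C1qa, C1qb, C1qc and Cd14, picked here from the same list outside the rule for named genes, were not called. Adgre1 (a surface receptor gene of macrophages) had 3.62 to 3.78 in KO cells and 3.29 to 4.33 in WT cells, in the dimmest tertile. Without WT replicate 1 every KO value of Adgre1 lay above both WT values (log2 fold change 0.27, limma adjusted p = 0.222). C1qa had 6.22 to 6.48 in KO cells and 5.97 to 6.49 in WT cells. The groups also overlapped in C1qb, C1qc and Cd14, with log2 fold changes of -0.11, -0.37 and -0.062. When WT replicate 1 was left out these were -0.15, -0.53 and 0.070, and that of C1qa was 0.21. The presence of mature macrophages was not tested. No listed marker had a signal of 0, since these log2 values have no true zero.

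Of 10 mast cell and basophil markers 3 rose and 0 fell (Fcer1a, Ms4a2 and Hdc), and the list summed to 3355 to 4126 in KO arrays, against 1705 to 2762 in WT arrays. Of the 10 log2 fold changes 7 were positive and 3 negative, down to -0.34. With the replicate number as a block 5 of these 10 were called higher, and 4 when WT replicate 1 was left out. Of all genes 1.41% were called higher with the block, and 3.28% higher and 1.38% lower without that array. Of 11 lymphocyte markers 1 rose and 0 fell. This was Nkg7, also expressed in myeloid precursors, and the list summed to 3089 to 3381 in KO arrays, against 1663 to 2207 in WT arrays. Nkg7 alone had 11.21 to 11.40 in KO arrays, against 9.83 to 10.52 in WT arrays, on the log2 scale, while 7 of the 11 log2 fold changes of the list were negative and its median was -0.21. With WT replicate 1 left out 1 lymphocyte marker was called higher and 1 lower. None of 7 erythroid and megakaryocyte markers was called. Tfrc (log2 fold change 1.45) and Klf1 (0.54) had an unadjusted limma p under 0.05. The groups overlapped in Klf1, which had 0.23 after cyclic loess and after quantile normalization. The list's sum was 3988 to 4938 in KO arrays, against 2936 to 3840 in WT arrays. Of its log2 fold changes 5 were positive and 2 negative. Their median was 0.25 over all arrays, 0.088 without WT replicate 1 and 0.0096 after cyclic loess normalization. Without WT replicate 1 Tfrc, the transferrin receptor gene, was called higher in KO cells (log2 fold change 0.99, limma adjusted p = 0.0152), as it was with the replicate number as a block (limma adjusted p = 0.0421). The part of these cell types in the signals of Ctsz, Cd68 and the other lysosomal genes was not tested.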

How the data were processed

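Per the labels' protocols, cells were sorted into lysis buffer, and an RNeasy Mini kit and the Nugen Ovation Pico WTA System V2 served for extraction and for amplification with labelling. Per the submitters' processing notes, RMA, Affymetrix Expression Console and Partek were used, and RMA is meant to yield background-corrected, normalized log2 values. The authors deposited log2 expression values for 35557 rows and 6 arrays. Their spread still differed, with an SD over all rows of 2.03 in WT replicate 1 and 2.22 to 2.29 in the other arrays. An exon array is named in the design text, while the annotation used to name rows is that of another array design, and which was scanned was not settled. Rows with 1 gene symbol (21789) were kept, and the row with the highest mean for each gene, which left 19938 genes. No detection calls were used. The number of arrays limits the precision.

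Log2 values were fitted by limma 3.58.1 under R 4.3.3 on genotype alone, which left 4 residual degrees of freedom. Two-sided moderated p-values were adjusted by Benjamini-Hochberg over all genes, with a threshold of 0.05. The procedure was also run on simulated data of independent normal values. These held no array that stood apart as WT replicate 1 did and no pairing, so that run cannot speak to either. The members, classes and lists were chosen with earlier results of these data known, so sets are described by counts and medians and not tested. Named genes are called members, the 3 highest and 3 lowest of each class, and for other lists the called genes with the smallest p (up to 6) or otherwise 2. Deviations from group means of same-numbered arrays correlated at 0.368, 0.119 and 0.162, above the 0.1 set for pairing, so the block is given where it changes a call. Arrays of different number correlated at -0.305 to 0.195, so only the 0.368 of replicate 1 stood above that range. The pairing is thus weakly supported, and calls that need the block are to be read with that limit. The labels do not say what a number marks. Alternatives were the block, 3 other scalings, removal of dim genes (below percentile 33), trend, robust and weighted fits, averaging of rows and leaving out each array.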

Additional observations from a re-analysis of the deposited data

How the results depend on the processing

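Of the 27 lysosomal genes given with a value in every array, 18 kept their sign under all alternatives that could be run for them. There were 15 alternatives, and 9 of the 27 turned in at least 1. Among the other members Ctsb, Ctsd, Ctsl, Ctso, Gaa, Naglu, Man2b1, Idua and Smpd1 also turned in at least 1. The call of Ctsz was kept under 8 of 15, while Cd68 was called under 5, Arsb and Ctsh under 2 and Ctsf under 1. With the replicate number as a block, 2 lysosomal genes and 8 genes of the further lysosome lists (5 without it) were called higher. Of all genes 1.41% were called higher with the block. It changed no call of the 27 other than that of Cd68. With arrays centred on their medians 2 lysosomal genes were called. With dim genes left out, Ctsk and Lgmn were not tested, 2 lysosomal genes were called and 10 of the further genes. Array weights gave 5 higher and 1 lower, 15 higher and 1 lower in the further lysosome lists, and 21 higher and 2 lower among the cell type markers. The shares of all genes called after centring, removal of dim genes or weighting were not counted, so these counts lack a background. At an unadjusted limma p under 0.05, array weights gave 17 members higher and 2 lower, where 14.5% and 11.1% of all genes were found.

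After quantile normalization 0 members and 3 of the further lysosome genes were called, and the medians were 0.053 for all members, 0.029 for proteases, 0.074 for glycosidases and sulfatases, 0.074 for lipid genes and 0.0295 for membrane proteins. After cyclic loess normalization 0 members were called and these medians were 0.045, 0.010, 0.077, 0.076 and 0.051. The shares of all genes called under both normalizations were not counted. At an unadjusted limma p under 0.05, 9 members were higher and 5 lower after quantile normalization (9.02% and 7.59% of all genes), and 9 and 5 after cyclic loess (9.68% and 8.51%).

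When each array was left out in turn, 0 to 3 members were called higher and 0 lower, 2 to 10 further lysosome genes higher and 0 to 1 lower, and 7 to 19 marker genes higher (16 over all arrays) and 0 to 1 lower. The highest counts came without p65 WT replicate 1, where 3.28% of all genes were called higher and 1.38% lower. For the other arrays left out, the shares of all genes called were not counted. At an unadjusted limma p under 0.05 the fits with an array left out gave 8 to 19 members higher and 1 to 3 lower. Of all genes 8.11% to 16.1% were higher and 3.33% to 10.5% lower. The median was 0.11 to 0.41 for all members, 0.17 to 0.43 for proteases, 0.11 to 0.41 for glycosidases and sulfatases, 0.096 to 0.47 for lipid genes, 0.21 to 0.52 for membrane proteins and -0.045 to 0.18 for regulators. Each of the lowest medians came without p65 WT replicate 1.

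The 29 turned signs of the 27 genes were all of values that were not called. Quantile normalization gave log2 fold changes of -0.24 for Glb1, -0.13 for Grn, -0.18 for Ids, 0.20 for Lgmn, -0.058 for Mcoln1 and 0.062 for Tfeb, and cyclic loess normalization -0.26, -0.11, -0.17, 0.18, -0.058 and 0.014 for the same genes. Centring gave 0.024 for Lgmn, 0.0089 for Psap and 0.040 for Tfeb, and array weights -0.056 for Arsa. Leaving out each array in turn gave ranges on both sides of 0 for Arsa (-0.072 to 0.10), Ids (-0.13 to 0.16), Lgmn (-0.27 to 0.11), Npc1 (-0.24 to 0.014), Psap (-0.21 to 0.047) and Tfeb (-0.14 to 0.050). The cause of these changes was not tested. RMA values carry no detection call, so whether dim genes such as Ctsk lie above background is not settled.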
